A study of Mus musculus with 6 samples.

Results

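The SOX transcription factors of chondrocytes described here are Sox9, its relative Sox8, the pair Sox5 and Sox6, and the pair Sox4 and Sox11, together with Wwp2, a gene that SOX9 switches on in cartilage. They are 7 genes, taken by symbol from the 55401 genes of the deposited read count table, and all 7 passed the filter on low counts that left 16260 genes for testing. The RNA came from the articular cartilage of mouse knees, taken at 10 weeks of age. There were 3 libraries labelled adseverin knockout (cKO 1 to 3), in which Scin, the gene of the actin-severing protein adseverin, is deleted, and 3 libraries labelled wild type (WT 1 to 3). Mice of both groups were given tamoxifen at 1.5 mg per 10 g of body weight on each of 5 days, starting at 8 weeks of age. The sources used here do not give the Cre driver, the deleted exons or any pooling of mice, nor do they state that each library came from its own mouse, so the p-values measure the spread between these libraries, which may be technical.

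SOX proteins bind DNA through a shared domain, the HMG box, and bend it. SOX9 is required to make cartilage and drives the genes of its matrix. SOX5 and SOX6, which lack an activation domain of their own, bind beside SOX9 at the enhancers of those genes and raise its output. SOX8 is the SOXE-group relative of SOX9, and SOX4 and SOX11, of the SOXC group, act mainly in progenitor cells, including those of the growing skeleton. WWP2 is a ubiquitin ligase of the NEDD4 family whose gene also carries the microRNA miR-140 of cartilage.

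The libraries held 22664828 to 31014996 reads in cKO and 23018642 to 27576134 reads in WT. Scin was read at 39.1, 29.9 and 29.4 CPM (counts scaled by library size and TMM factor) in cKO and at 186, 185 and 219 CPM in WT, a log2 fold change of -2.59 ± 0.14 (SE; edgeR adjusted p = 6.59e-04), so every library matched its label. Scin was the 1 gene of 16260 past an adjusted p of 0.05 with edgeR, a background of 0.00615%. With DESeq2 91 genes passed, 0.538% of the 16906 that it gave an adjusted p. The cells are labelled as native articular chondrocytes, and 10 chondrocyte markers summed to 27051 to 33319 CPM in cKO and 25731 to 26162 CPM in WT. Markers of osteoblasts and osteocytes were at least as abundant in sum, at 39397 to 40936 CPM in cKO and 33733 to 40361 CPM in WT. Most of that sum is Ibsp, at 24365 to 30048 CPM in cKO and 23181 to 25513 CPM in WT. It is listed here also as a gene of chondrocyte hypertrophy. Chad, a cartilage matrix gene at 21437 to 24908 CPM over the 6 libraries, is on neither list. The 2 sums depend on the genes listed and do not give shares of cell types. Skeletal muscle markers summed to 39.5 to 255 CPM in cKO, whereas in WT they were at 66.9 CPM in WT 1, 1403 CPM in WT 2 and 40.9 CPM in WT 3, so WT 2 stood apart from the other libraries. In bulk RNA of this kind, fewer cells of a type and less RNA per cell cannot be told apart.

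The 6 SOX genes share the HMG box, and the stretch of 60 bases below, 20 codons long, was chosen as one in which the amino acids of the other genes match Sox9 closely. It is shown because the family is counted from reads that must tell such stretches apart. Each sequence is read 5′ to 3′ on the coding strand from the GENCODE M21 transcripts (GRCm38), lies in a single coding exon, and has in capitals the bases that differ from Sox9.
Sox9: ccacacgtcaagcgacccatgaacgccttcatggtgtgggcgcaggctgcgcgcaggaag
Sox8: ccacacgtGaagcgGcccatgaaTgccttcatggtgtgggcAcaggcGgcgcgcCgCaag
Sox5: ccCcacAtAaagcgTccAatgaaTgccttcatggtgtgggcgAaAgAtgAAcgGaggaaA
Sox6: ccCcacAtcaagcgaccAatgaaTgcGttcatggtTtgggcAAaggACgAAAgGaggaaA
Sox4: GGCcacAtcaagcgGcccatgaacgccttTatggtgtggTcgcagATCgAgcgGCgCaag
Sox11: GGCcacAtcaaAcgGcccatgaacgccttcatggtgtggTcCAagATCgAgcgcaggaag
The stretches lie at chr11:112782891-112782950 (plus strand) in Sox9, chr17:25570175-25570234 (minus) in Sox8, chr6:143841226-143841285 (minus) in Sox5, chr7:115489715-115489774 (minus) in Sox6, chr13:28952794-28952853 (minus) in Sox4 and chr12:27342211-27342270 (minus) in Sox11.

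Sox8 matched Sox9 at 53 of the 60 bases, and all 20 codons of the stretch encoded the same amino acids. Sox5 and Sox6 matched each other at 52 bases and in all 20 amino acids, but matched Sox9 at 47 and 45 bases and in 16 amino acids each. Sox4 and Sox11 matched each other at 53 bases and in 19 amino acids. Identical runs between whole transcripts were short. The longest was 48 bases, between Sox4 and Sox11, and the next was 27 bases, between Sox8 and Sox11. How reads that match several genes were treated is not given in the sources at hand.

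No member passed the test between cKO and WT, and in none of the 7 did the 3 cKO libraries separate from the 3 WT libraries. The genes whose groups do not overlap made up 12.3% of all genes tested. With edgeR 0 of 7 members had an unadjusted p under 0.05, against a background of 6.5%, of which 3.54% were higher and 2.96% lower in cKO. With DESeq2 0 of 7 passed after adjustment, and Sox9 alone had an unadjusted p under 0.05, by a narrow margin. Of the 28474 genes fitted by DESeq2, 1377 were under that cutoff. When DESeq2 was given only the 16260 genes left by the filter, 1141 were. The log2 fold change was above 0 in 5 members and below 0 in 2, with a median of 0.11, while the median over all genes tested was 0.0037 with 50.6% of them above 0 and 49.4% below.

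**Figure D1:**
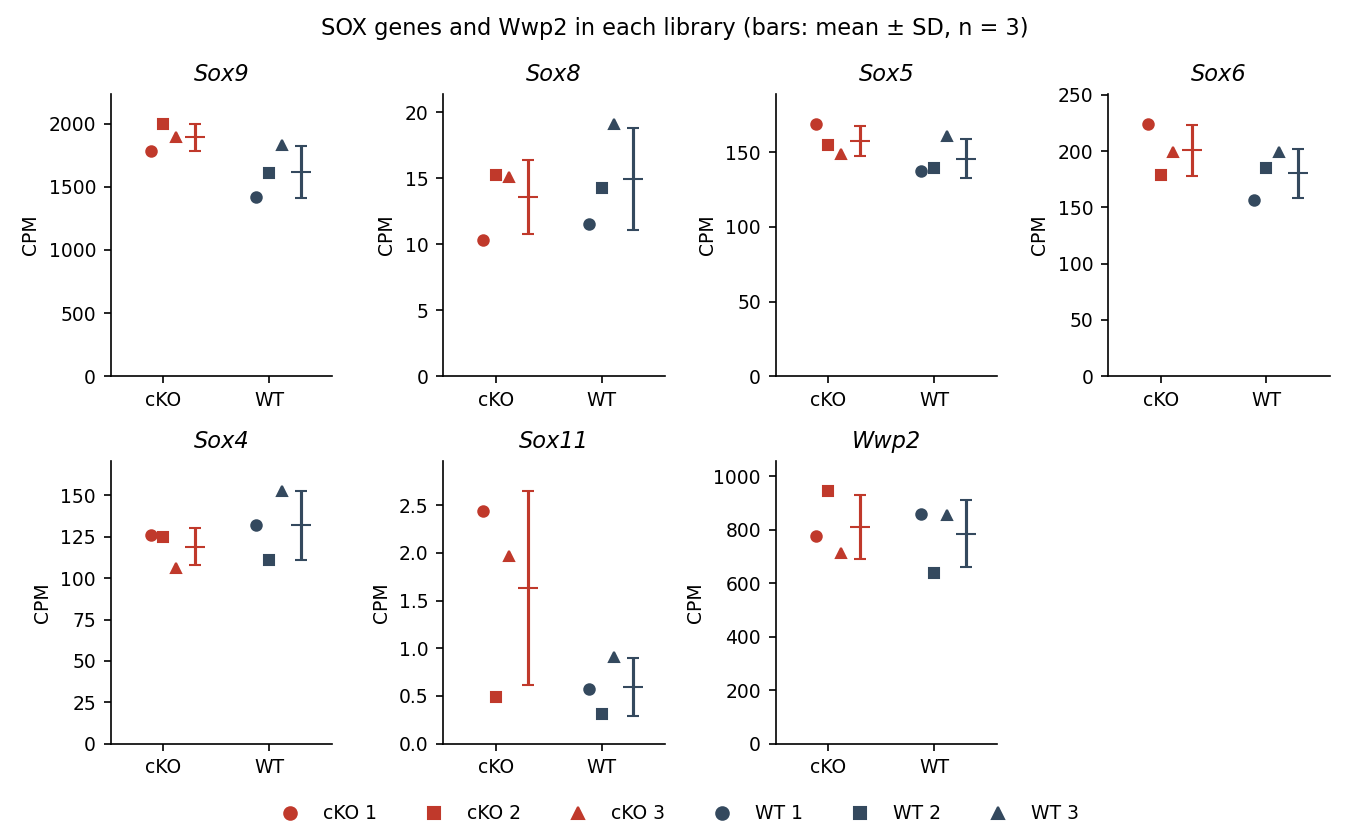
CPM (counts scaled by library size and TMM factor, linear axis from 0) of the 6 SOX genes and Wwp2 in each library, with cKO left of WT in every panel, a symbol for each library and the mean ± SD of n = 3 beside it. The groups overlap in every panel. Sox9 is the most abundant SOX gene, at 1417 to 1999 CPM, and Sox11 is at 0.307 to 2.44 CPM.

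Sox9 (ENSMUSG00000000567, GRCm38 chromosome 11, 112782224 to 112787760, plus strand), the factor on which chondrocyte identity depends, was read at 1787, 1999 and 1892 CPM in cKO and at 1417, 1613 and 1831 CPM in WT. The lowest and the next lowest values were WT 1 and WT 2, but WT 3 lay above cKO 1, so the groups overlapped. The mean was 1893 ± 106 CPM in cKO and 1621 ± 207 CPM in WT (SD, n = 3 each). The log2 fold change was 0.22 ± 0.10 (SE), with a 95% interval of -0.01 to 0.46, which runs from 99.3% to 137% of the WT level (edgeR adjusted p = 0.783). It was 0.13 without WT 1 and 0.32 without WT 3. Beside it, the summed chondrocyte markers given above were higher in every cKO library than in any WT library, and both they and Sox9 were highest in cKO 2. Most of that sum is Col2a1, the main cartilage collagen, at 17598 ± 2603 CPM in cKO and 14840.5 ± 429 CPM in WT. Of the 10 markers, 8 had a log2 fold change above 0 and 2 below, where 50.6% of all genes tested were above 0. In 5 markers every cKO library was above every WT library (background 6.41%), and in 1, Acan, every cKO library was below (background 5.89%). The part of the share of chondrocyte RNA in the Sox9 values was not tested.

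Sox8 (chromosome 17, 25565892 to 25570686, minus strand) was far less abundant, at 10.3, 15.2 and 15.1 CPM in cKO and 11.5, 14.3 and 19.1 CPM in WT. The lowest library was cKO 1 and the highest WT 3, and the other libraries lay between them in no order of group. Its log2 fold change was -0.14 ± 0.24, with an interval of -0.70 to 0.41 (edgeR adjusted p = 0.964). The direction turned to 0.02 without cKO 1 and to 0.07 without WT 3. An antisense gene, 2810468N07Rik, shares 329 exon bases with Sox8 and had 186, 291 and 191 reads in cKO and 141, 129 and 213 reads in WT, against 233, 463 and 360 Sox8 reads in cKO and 323, 325 and 503 in WT. Whether strand was used in counting is not stated, so reads of that overlap cannot be told apart.

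Sox5 (chromosome 6, 143828425 to 144781977, minus strand), one of the SOXD partners of SOX9, stood at 169, 155 and 149 CPM in cKO and 137, 139 and 161 CPM in WT. Its coefficient of variation was 6.57% in cKO and 8.96% in WT, where that of Sox9 was 5.62% in cKO and 12.8% in WT. Its highest library was cKO 1, and WT 3 lay above the other cKO libraries. Between the groups it differed by 0.11 ± 0.10 on the log2 scale (interval -0.11 to 0.33, edgeR adjusted p = 0.897), and by 0.06 without cKO 1 and 0.19 without WT 3.

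Sox6 (chromosome 7, 115470872 to 116038796, minus strand), the other partner, measured 224, 179 and 199 CPM in cKO and 157, 185 and 199 CPM in WT. As for Sox5, cKO 1 was the highest library and WT 1 the lowest, while cKO 2 lay below WT 2 and WT 3. Its log2 fold change was 0.16 ± 0.12 (interval -0.11 to 0.43, edgeR adjusted p = 0.885), and 0.06 without WT 1. Sox6 also acts in red cell precursors and in muscle fibres. Erythroid markers summed to 4420 CPM in cKO 1 and 2914 to 3259 CPM in the other cKO libraries, against 2768 to 3106 CPM in WT. All 10 had a log2 fold change above 0, as did 50.6% of all genes tested. With edgeR 0 of the 10 passed, and with DESeq2 4 passed (background 0.538%). The part of erythroid RNA in the Sox6 values was not tested. In WT 2, the library with the most muscle RNA, Sox6 was the middle one of the WT values, and the part of muscle RNA was not tested either.

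Sox4 (chromosome 13, 28948919 to 28953713, minus strand), a SOXC factor of progenitor cells, was read at 126, 125 and 106 CPM in cKO and 132, 111 and 152 CPM in WT. It lay lower on average in cKO, with WT 2 inside the cKO range. Its difference on the log2 scale was -0.15 ± 0.13 (interval -0.44 to 0.15, edgeR adjusted p = 0.901), and it was -0.03 without WT 3 and -0.26 without WT 2. Gm26735, a gene on the opposite strand that shares 2616 exon bases with Sox4, is not among the genes of the authors' read counts. As strand use in counting is not stated, it is not known whether reads of Gm26735 are among those of Sox4.

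Sox11 (chromosome 12, 27334264 to 27342574, minus strand), the other SOXC factor, was close to the limit of these libraries, with 55, 15 and 47 reads in cKO and 16, 7 and 24 reads in WT. That is 2.44, 0.494 and 1.97 CPM in cKO and 0.569, 0.307 and 0.912 CPM in WT. Levels in cKO 1 and cKO 3 were above every WT library, but cKO 2 was below WT 1 and WT 3. Of the members it had the largest log2 fold change, at 1.44 ± 0.74, with an interval of -0.25 to 3.13, which runs from 83.8% to 873% of the WT level (edgeR adjusted p = 0.811). It was 1.03 without cKO 1 and 1.87 without cKO 2 or WT 3. When 1 CPM was required in each of 3 libraries, Sox11 dropped out of the test. Sox4, which shares a run of 48 bases with it, had 2532 to 4010 reads per library, and the part of shared reads in the Sox11 counts was not tested.

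Wwp2 (chromosome 8, 107436365 to 107558595, plus strand), the gene of the ubiquitin ligase, stood at 775, 943 and 711 CPM in cKO and 858, 639 and 856 CPM in WT. The highest library was cKO 2 and the lowest WT 2, so the groups lay across each other. It differed by 0.05 ± 0.14 on the log2 scale (interval -0.28 to 0.37, edgeR adjusted p = 0.981), and its sign turned without cKO 2 (-0.08) and without WT 2 (-0.09). The order of the libraries for Wwp2 was not that for Sox9, since WT 1 held the lowest Sox9 value and the next-to-highest Wwp2 value. The miR-140 hairpin (Mir140, chromosome 8, 107551244 to 107551313) lies within annotated Wwp2 exon sequence and was listed at 0 reads in all 6 libraries, whose cDNA was made full-length and not from small RNA. The mature 3p arm of the hairpin is shown as another RNA of the Wwp2 locus, from RefSeq on GRCm38.p6 at chr8:107551288-107551308 on the plus strand, with the seed (bases 2 to 8) in capitals.
mmu-miR-140-3p: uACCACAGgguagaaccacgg

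**Figure D2:**
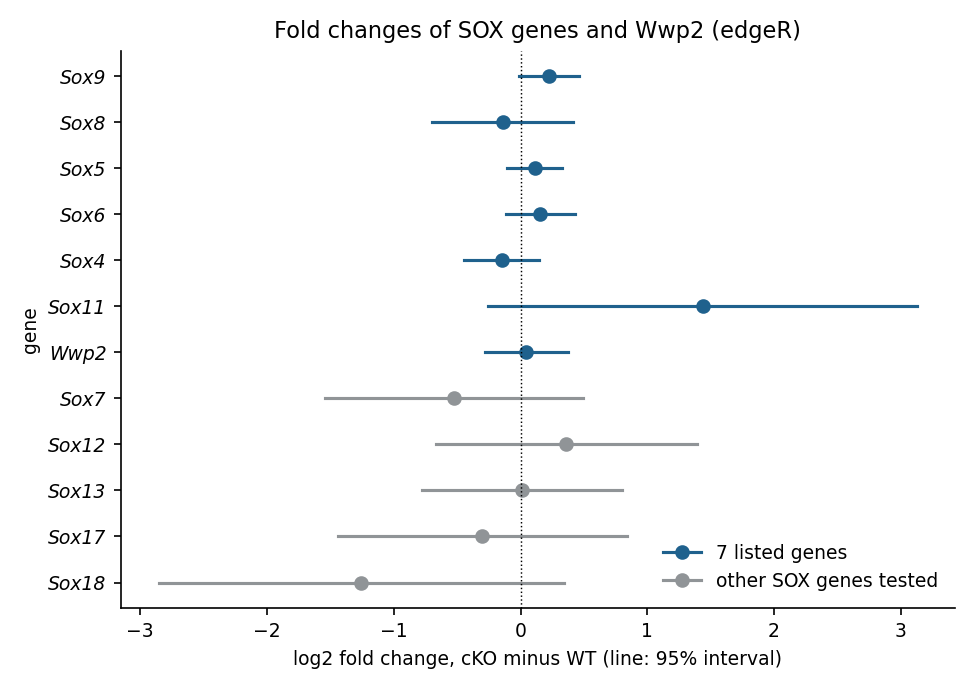
Log2 fold changes (cKO minus WT, horizontal axis) from edgeR for the 7 listed genes and for the other 5 SOX genes tested, with points for the estimate and lines for the 95% interval. Every interval crosses 0. The narrowest are those of Sox5 (-0.11 to 0.33) and Sox9 (-0.01 to 0.46), and Sox11 has the widest (-0.25 to 3.13).

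Levels of different genes are compared per length, as CPM per kb of all annotated exons. Sox9 was at 458 ± 25.7 CPM per kb in cKO and 391.9 ± 50.02 CPM per kb in WT (SD, n = 3 each), which placed it 66th among the 16260 genes tested in cKO and 77th in WT. Wwp2 followed at 91.3 ± 13.5 CPM per kb in cKO and 88.4 ± 14.2 CPM per kb in WT, and Sox4 at 24.8 ± 2.32 in cKO and 27.5 ± 4.31 in WT. Sox6 had 13.5 ± 1.53 CPM per kb in cKO and 12.2 ± 1.45 in WT, Sox5 had 10.96 ± 0.72 in cKO and 10.1 ± 0.91 in WT, Sox8 had 4.34 ± 0.90 in cKO and 4.80 ± 1.24 in WT, and Sox11 had 0.196 ± 0.122 in cKO and 0.0717 ± 0.0365 in WT. This order held in each of the 6 libraries. The ranges over libraries overlapped for Sox6 and Sox5, although Sox6 was above Sox5 within every library, and the ranges of every other neighbouring pair were separate.

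The order rests in part on the length used. With the longest transcript in place of all exons, levels were 188 CPM per kb in cKO and 182 in WT for Wwp2, 23.2 in cKO and 20.8 in WT for Sox6, and 21.8 in cKO and 20.1 in WT for Sox5. These genes have 11, 16 and 14 annotated transcripts, whose exons add up to far more than the longest one. Sox4, at 27.5 CPM per kb in WT with either length, then overlapped Sox6, and Sox6 was above Sox5 in 4 of 6 libraries. Sox9, with 1 transcript, stayed first of the members in every library. Its rank among all genes tested was taken with the length of all exons only.

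**Figure D3:**
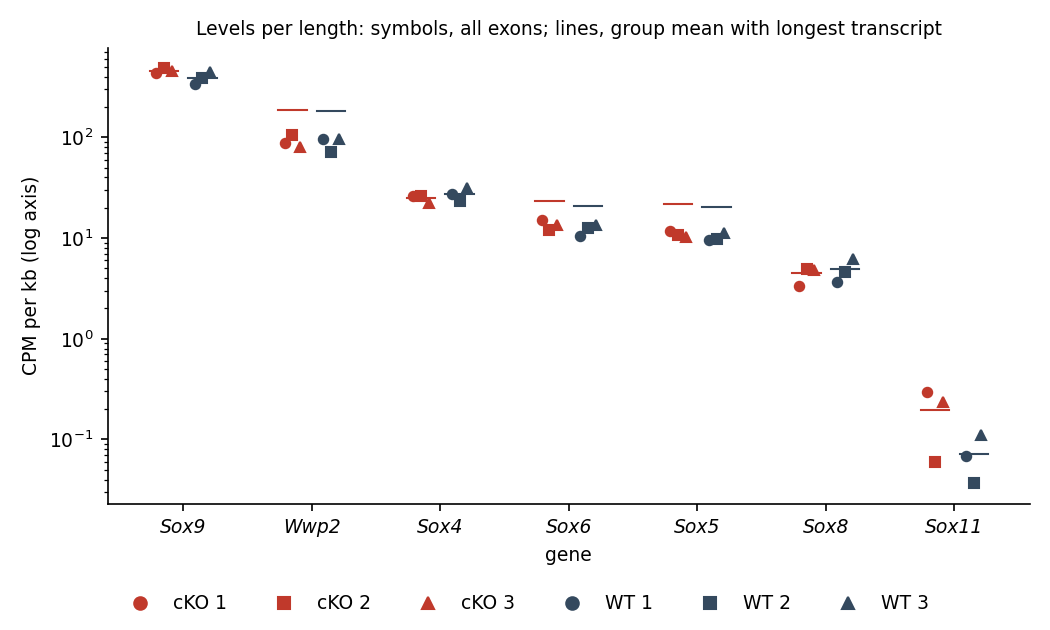
CPM per kb (log axis) of the 7 genes, in falling order, with a symbol for each library over the length of all exons and a short line for the group mean over the longest transcript, cKO left of WT for each gene. Sox9 is highest in both groups, at 458 CPM per kb in cKO and 391.9 CPM per kb in WT. Lines lie well above the symbols for Wwp2, Sox6 and Sox5, the genes whose level depends on the length used.

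Over all 19 SOX genes examined, Sox9 made up most of the SOX RNA. Its share of the summed CPM per kb was 87.8%, 89.4% and 88.8% in cKO and 85.5%, 87.2% and 86.7% in WT. Each cKO value was above each WT value, narrowly so for cKO 1 and WT 2, although the CPM of Sox9 overlapped between the groups. How often such shares separate for other genes was not computed, and no test was run on the Sox9 share. The smallest p that an exact permutation test allows for 3 libraries against 3 is 0.1. The SOXD genes Sox5, Sox6 and Sox13 together held 4.45% to 5.67% in cKO and 5.12% to 5.29% in WT. The SOXC genes Sox4, Sox11 and Sox12 held 4.46% to 5.48% in cKO and 5.24% to 6.98% in WT, overlapping between the groups. These shares depend on the length used. With the longest transcript, SOXD held 7.74% to 9.79% in cKO and 8.83% to 9.08% in WT. SOXC then held 4.29% to 5.24% in cKO and 5.02% to 6.69% in WT. Sox9 held 83.9% to 86.2% in cKO and 82.0% to 83.5% in WT.

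Ratios within a library do not depend on how libraries are scaled to each other. Sox5 was at 0.0272, 0.0222 and 0.0227 of the Sox9 level per kb in cKO and 0.0279, 0.0248 and 0.0253 in WT. Sox6 was at 0.0350, 0.0250 and 0.0294 of Sox9 in cKO and 0.0308, 0.0320 and 0.0303 in WT. The ratio of Sox6 to Sox5 was 1.28, 1.122 and 1.297 in cKO and 1.11, 1.29 and 1.20 in WT, so the proportions of the 3 partners overlapped between the groups.

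The ratio of Sox8 to Sox9 was 0.766%, 1.01% and 1.06% in cKO and 1.08%, 1.17% and 1.38% in WT. All cKO values were below all WT values, with cKO 3 and WT 1 almost touching. No other member had a separate ratio to Sox9, and the CPM of Sox8 itself overlapped between the groups. How often ratios to Sox9 separate over all genes tested was not computed. Sox4 over Sox9 was 0.0608, 0.0538 and 0.0484 in cKO and 0.0803, 0.0594 and 0.0718 in WT, with cKO 1 above WT 2. Wwp2 over Sox9 was 0.202, 0.220 and 0.175 in cKO and 0.282, 0.185 and 0.218 in WT, and the groups overlapped.

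**Figure D4:**
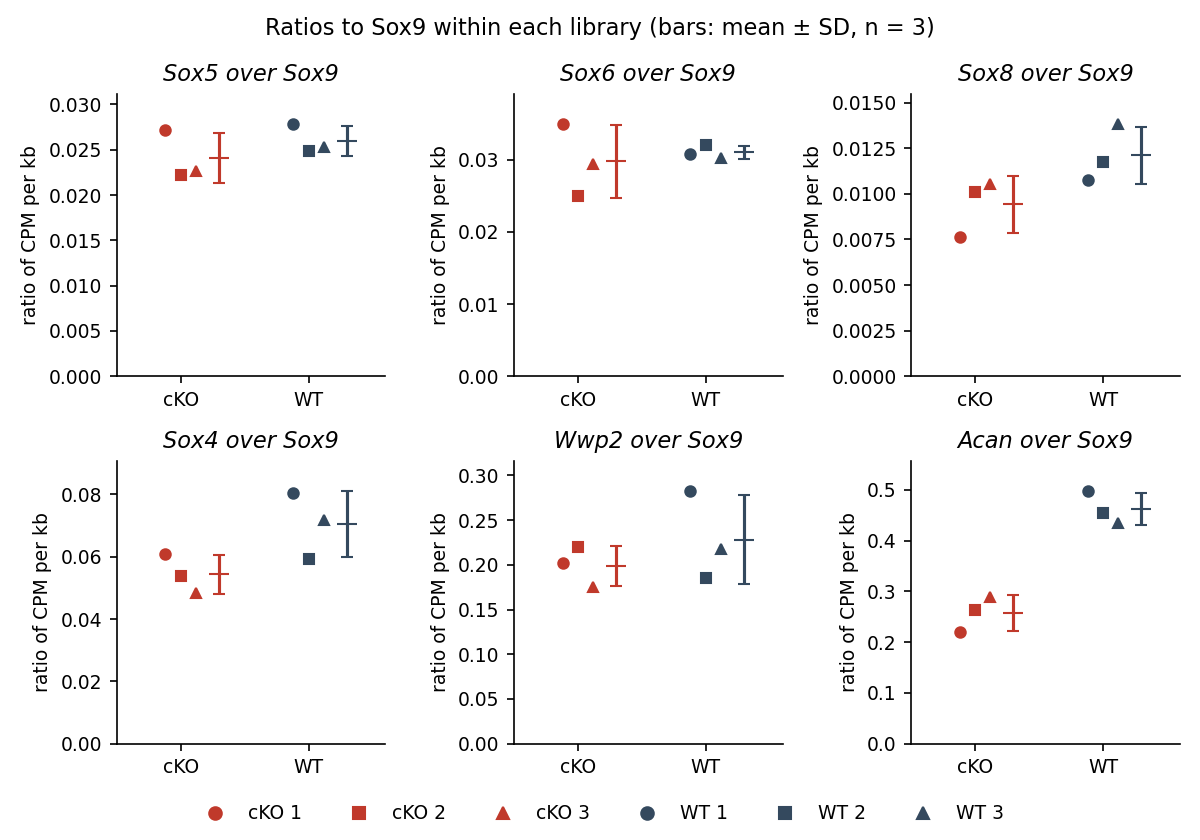
Ratio of the CPM per kb of Sox5, Sox6, Sox8, Sox4, Wwp2 and Acan to that of Sox9 in each library (linear axes from 0), cKO left of WT, with the mean ± SD of n = 3 beside the symbols. The groups overlap for Sox5, Sox6, Sox4 and Wwp2, are separate by a narrow margin for Sox8, and are widely separate for Acan (0.219 to 0.289 in cKO, 0.435 to 0.497 in WT).

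Known SOX9 target genes of chondrocytes were listed to set beside the factors themselves. Of 21 listed, 20 were tested, and 0 of 20 passed with edgeR, 8 of them at an unadjusted p under 0.05 (background 6.5%). With DESeq2 1 passed, Acan, as lower (background 0.538%). The log2 fold change was above 0 in 17 targets, with a median of 0.24, where the median over all genes tested was 0.0037. In 11 targets every cKO library was above every WT library (background 6.41%), and in 1, Acan, every cKO library was below (background 5.89%). The list was chosen with earlier results of these data known, and it holds all 10 chondrocyte markers whose sum is given above. Marker lists of other cell types gave the following directions. Osteoblast and osteocyte markers were above 0 in 8 of 10 (median 0.26), neutrophil markers in 7 of 8 (median 0.38) and erythroid markers in 10 of 10 (median 0.51). Macrophage markers were above 0 in 0 of 8 (median -0.30), skeletal muscle markers in 0 of 8 (median -1.40) and adipocyte markers in 0 of 6 (median -1.36). Osteoclast markers were above 0 in 1 of 8 (median -0.14) and fibroblast and tendon markers in 3 of 8 (median -0.13). Counts were 2 of 8 for endothelial markers (median -0.36) and 1 of 5 for pericytes and smooth muscle (median -0.98). For Schwann and neural markers the count was 3 of 5 (median 0.02). Summed CPM overlapped between the groups for each of these cell types, and the muscle sum was highest in WT 2, at 1403 CPM. The part of the cell makeup in the count of targets was not tested.

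Acan, which encodes aggrecan, the large proteoglycan of cartilage, was at 708, 949 and 989 CPM in cKO and 1273, 1322 and 1440 CPM in WT. Its log2 fold change was -0.61 ± 0.13 (edgeR adjusted p = 0.535; DESeq2 adjusted p = 0.00201). Fgfr3, a growth factor receptor of chondrocytes, was at 65.6, 97.7 and 112 CPM in cKO and 56.1, 65.3 and 56.7 CPM in WT, a log2 fold change of 0.63 ± 0.18 (edgeR adjusted p = 0.658). The groups were separate in both genes, although for Fgfr3 cKO 1 and WT 2 nearly met. Chad, the most abundant target, which encodes the matrix protein chondroadherin, differed by 0.09 ± 0.06 on the log2 scale (edgeR adjusted p = 0.873).

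Target levels were also set against Sox9 within each library, a comparison added after the values were seen. Acan was at 0.219, 0.263 and 0.289 of the Sox9 level per kb in cKO and 0.497, 0.454 and 0.435 in WT, so the groups were far apart. Col2a1 was at 4.08, 4.61 and 3.76 times Sox9 in cKO and 4.83, 4.10 and 3.53 times in WT, with the groups overlapping. Comp, another abundant matrix gene of the list, differed by 0.13 ± 0.08 on the log2 scale (edgeR adjusted p = 0.867), and Col2a1 by 0.25 ± 0.10 (edgeR adjusted p = 0.742).

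**Figure D5:**
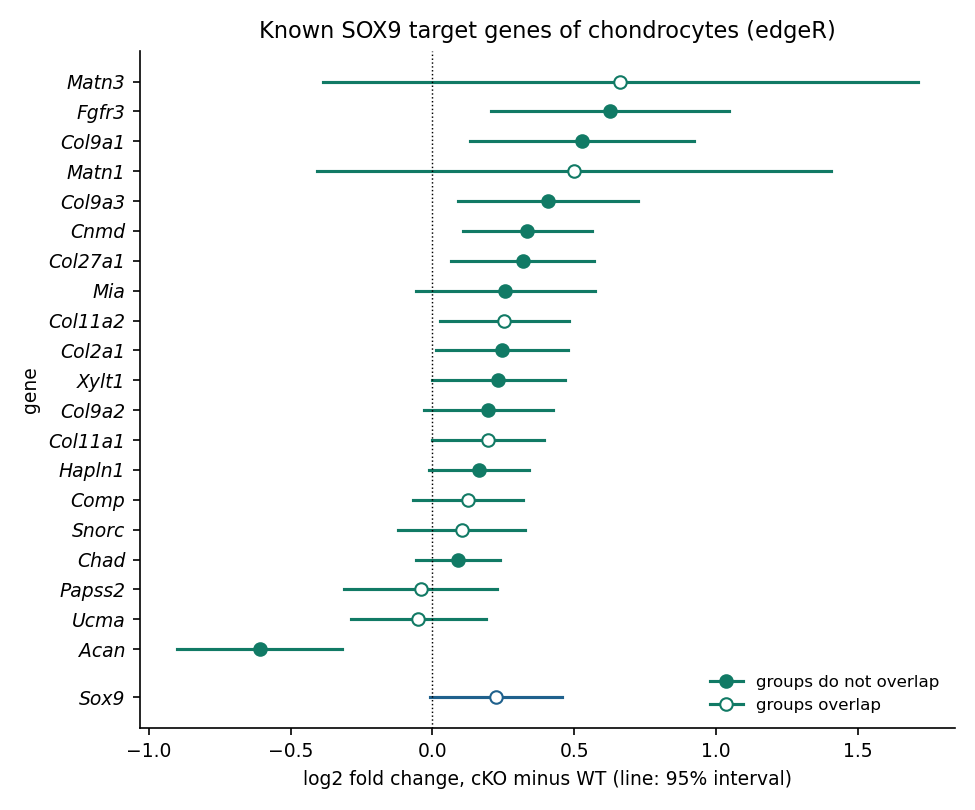
Log2 fold changes (cKO minus WT, edgeR) of the 20 SOX9 target genes tested, from high to low, and of Sox9 at the bottom, with lines for the 95% interval and filled points where the groups do not overlap. There are 17 targets right of 0, and Acan, at -0.61, lies apart from the rest on the left.

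The genes around the SOX factors gave the following counts with edgeR, with 0 past the threshold in every list. Among 10 partners and coactivators of SOX9, 4 were above 0 and 6 below (median -0.04), 0 had an unadjusted p under 0.05, and DESeq2 passed 0. Crebbp, a histone acetyltransferase that SOX9 recruits, measured 195, 189 and 197 CPM in cKO and 177, 169.6 and 172 CPM in WT, with separate groups (log2 fold change 0.16 ± 0.07, edgeR adjusted p = 0.776). It was the only 1 of the 10 with separate groups (background 12.3%), and it was named for its small p. Arid5a, a coactivator of SOX9, was at -0.48 ± 0.26 and Trps1, the most abundant of the list and a GATA-type factor of the growth plate, at 0.10 ± 0.11 on the log2 scale.

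Among 18 genes of signals that act on Sox9, 8 were above 0 and 10 below (median -0.06), 3 had an unadjusted p under 0.05 (background 6.5%), and DESeq2 passed 0. The list shares Fgfr3 with the targets. Hif1a, the oxygen-regulated factor that upholds Sox9 in poorly supplied cartilage, was at 336, 397 and 327 CPM in cKO and 406, 412 and 427 CPM in WT. Its groups were separate, with a log2 fold change of -0.23 ± 0.09 (edgeR adjusted p = 0.715). It was the 1 gene of the 18 with every cKO library below every WT library (background 5.89%). In 2 of the 18 every cKO library was above (background 6.41%).

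Genes of hypertrophy, the late stage of growth plate chondrocytes that SOX factors hold back, were above 0 in 7 and below 0 in 7 of 14 (median -0.01). In 4 of them the unadjusted edgeR p was under 0.05 (background 6.5%), and DESeq2 passed 1, Ihh, as higher (background 0.538%). Ihh, the Hedgehog ligand of prehypertrophic chondrocytes, was at 143, 176 and 166 CPM in cKO and 129, 91.3 and 113 CPM in WT (log2 fold change 0.54 ± 0.14, edgeR adjusted p = 0.605). Mef2c, a factor that drives hypertrophy, was at 638, 584 and 669.9 CPM in cKO and 529, 459 and 503 CPM in WT (0.34 ± 0.09, edgeR adjusted p = 0.605). Both, named for the smallest p-values of the list, were higher in every cKO library than in any WT library. That held for 3 of the 14 genes (background 6.41%). Ibsp, the most abundant of the list and also an osteoblast marker, was at 0.19 ± 0.09.

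Of the 6 NEDD4-family ligases tested beside Wwp2, 4 were above 0 and 2 below, 0 had an unadjusted p under 0.05 and DESeq2 passed 0. Nedd4, the most abundant, measured 616, 681 and 661 CPM in cKO and 598, 641 and 622 CPM in WT (log2 fold change 0.07 ± 0.07), and Nedd4l differed by 0.15 ± 0.17.

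The rest of the SOX family was scarce in this tissue. Sox13, the remaining SOXD gene, was at 3.42 to 7.16 CPM over the 6 libraries, and Sox12, the remaining SOXC gene, at 1.14 to 2.72 CPM. Sox13 had a log2 fold change of 0.01 ± 0.34. That of Sox12 was 0.36 ± 0.45, and it was 0.12 without WT 2 and 0.68 without WT 3. Sox7, Sox17 and Sox18, the SOXF genes of blood vessels, had log2 fold changes of -0.52 ± 0.45, -0.30 ± 0.50 and -1.26 ± 0.70, with edgeR adjusted p-values of 0.897, 0.963 and 0.826. Sox7 was at -0.16 without WT 2 and -0.84 without cKO 3, and Sox18 at -0.79 without WT 1 and -2.26 without cKO 3. Sox17 turned to 0.25 without WT 2. Sox18 was at 1.24, 0.461 and 3.39 CPM in cKO and 6.30, 3.38 and 2.43 CPM in WT, and cKO 3 lay above WT 2 and WT 3. Endothelial markers, a list that itself holds Sox17 and Sox18, summed to 29.6 to 54.2 CPM in cKO and 37.4 to 60.2 CPM in WT, and the part of vessel RNA in the SOXF values was not tested.

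Sox1, Sox2, Sox3, Sox14 and Sox21 had 0 reads in all 6 libraries, which allows up to 3 reads, or 0.0967 to 0.132 CPM per library, as counting error only. Sox15 and Sox30 had at most 5 reads in any library. Sox10, the SOXE gene of Schwann cells, had 11 reads in WT 2 and 0 in every other library. WT 2 is also the library with the most muscle RNA. Schwann and neural markers, a list that itself holds Sox10, summed to 782 CPM in WT 2 and 712 to 835 CPM in the other libraries. The part of other tissue in the Sox10 reads was not tested.

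Patterns over the 6 libraries were compared for Sox9, Sox5, Sox6 and Wwp2 with those of 9092 other genes of at least 10 CPM, by the root-mean-square difference of log2 CPM after centring each gene on its own mean. The genes nearest to Sox9 were Srp54c (0.029), Rbp4 (0.039) and Pdgfrl (0.041), where Sox9 itself varied by 0.164 around its mean. Those nearest to Sox5 were Lsg1 (0.028), Cdpf1 (0.030) and Utp11 (0.033), and those nearest to Sox6 were Mcc (0.026), Lamtor3 (0.042) and Acbd6 (0.050). Wwp2 was most like Clk3 (0.015), Spout1 (0.037) and Adprm (0.049). No member was among the nearest genes of another, and with 6 libraries and so many genes, close matches are given as a description.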

How the data were processed

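Whole read counts per Ensembl gene were deposited by the authors without normalization, and tests were run on them. GRCm38, featureCounts 2.0.1, HISAT2 2.2.1, DESeq2 1.30.1, R 4.0.5 and FastQC 0.11.9 are named in the submitters' processing notes. Settings, annotation release, strand and multi-mapping are not given there. A deposited normalized signal equals those counts divided by a size factor per library: 100% of its values above 0 gave whole reads within 0.001 of a read, 0 differed from the count table, and edgeR called 1 gene on them. GENCODE M21 gave symbols, places and lengths for 55141 identifiers.

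Genes were filtered with filterByExpr, scaled by TMM factors and tested in edgeR 4.0.16 (glmQLFit and glmQLFTest, R 4.3.3), group being the only term, with Benjamini-Hochberg adjustment over all genes tested. SE is the log2 fold change divided by the square root of F. Libraries of a group differed by more than sampling noise (chi-square per degree of freedom 31.4 to 36.5). Replicate numbers were not taken as pairs (correlations of deviations -0.04, 0.12 and 0.04). Scripts were tested on simulated data. Alternatives were DESeq2 1.42.0, limma 3.58.1 (voom, and trend on log2 of the deposited values plus 1 or 0.5), other factors and filters, and left-out libraries. Members and lists were chosen with earlier results of these data known. Named are the members, other SOX genes tested, Scin, the 2 smallest p-values and the most abundant gene of each pathway list, the 2 most abundant markers of a cell type (given for chondrocytes only) and the 3 nearest patterns of Sox9, Sox5, Sox6 and Wwp2. The ratios of Acan and Col2a1 to Sox9 were chosen after their values were seen.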

Additional observations from a re-analysis of the deposited data

How the results depend on the processing

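The 7 members gave 146 values over 21 alternatives (Sox11 was not tested in 1), and none passed the threshold, with edgeR, DESeq2 or limma adjusted p-values of 0.623 to 0.99988. Sox11 was given no adjusted p by DESeq2 on the edgeR-filtered genes. Among these alternatives, edgeR on the reads recovered from the normalized signal repeated the main fit. Robust dispersion gave the same log2 fold changes as the main fit, so direction could not turn in either. With both of these counted, the direction was kept in 142 of the 146. The exceptions were Sox8 and Wwp2, whose log2 fold changes ran from -0.31 to 0.075 and from -0.089 to 0.13 with single libraries left out. Those of Sox13 ran from -0.25 to 0.17 and of Sox17 from -0.65 to 0.25. With WT 2 and cKO 3 both left out, a setting chosen after seeing the data, Sox12, Sox13 and Sox17 turned to -0.025, -0.075 and 0.31. The cause was not tested. The unadjusted p of Sox9 ran from 0.0121 without WT 3 to 0.193 without WT 1. The count of genes past the threshold was 91 with DESeq2, 85 with DESeq2 on the edgeR-filtered genes, 3 with no filter, 1 to 2 with single libraries left out, and 0 with WT 2 and cKO 3 both left out, where edgeR found 974 at an unadjusted p under 0.05. With the replicate number as a block, edgeR called 1 gene and 0 members; the libraries did not all deviate most like the one with their own number. The SOX9 targets above 0 were 17 to 20 of 20 or 21 in every refit. Depth limits Sox11, with 7 to 55 reads per library.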
